A study of Mus musculus with 12 samples.

Results

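Interferon-stimulated genes and cytosolic nucleic acid sensors were followed in mouse liver after diethylnitrosamine (DEN) as a set of 41 genes, taken by symbol from a list of effectors, sensors and regulators of the interferon response. All 41 were found among the 22609 gene symbols counted, and all 41 passed the filter on low counts that left 13255 genes for testing. Bulk RNA sequencing of liver from male C57BL/6 mice at 8 weeks of age gave 12 libraries. DEN is a hepatotoxic carcinogen that liver enzymes convert into a DNA-alkylating agent, and TRIM21 is an antibody-binding ubiquitin ligase of the cytosol that is itself interferon-inducible. The groups were 3 wild-type and 3 Trim21 knockout libraries from mice given PBS alone, 3 wild-type and 2 Trim21 knockout libraries from mice given 200 mg/kg DEN in PBS, and 1 DEN library labelled TRIM21+/-. Every mouse had a single intraperitoneal injection and its liver was taken 48 h later. Library titles carry a number but do not say that each is a separate animal, so p-values describe the spread among these samples, which may be partly technical.

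Type I and type III interferons signal through JAK kinases to a complex that includes STAT2 and IRF9, which binds the interferon-stimulated response element (ISRE) in promoters. Interferon gamma acts through another promoter element, the gamma-activated sequence (GAS). The induced genes block viral entry, translation and replication, sense foreign or misplaced RNA and DNA, or feed back on the pathway itself. In the liver, hepatocytes, Kupffer cells, endothelium and passing lymphocytes can all express them, and many are transcribed at a low constant level without infection.

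The promoters of 5 members are shown because they carry ISRE matches and belong to genes whose values are given below. They are 5 of the 13 members with such a match. Each sequence is the 250 bases upstream of a transcription start, 5′ to 3′ on the gene's strand, from RefSeq on GRCm38.p6, with ISRE matches in capitals. For Gbp3, the table has 2 annotated starts, and the window of the first is shown; that of the second has 0 ISRE matches.

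Isg15: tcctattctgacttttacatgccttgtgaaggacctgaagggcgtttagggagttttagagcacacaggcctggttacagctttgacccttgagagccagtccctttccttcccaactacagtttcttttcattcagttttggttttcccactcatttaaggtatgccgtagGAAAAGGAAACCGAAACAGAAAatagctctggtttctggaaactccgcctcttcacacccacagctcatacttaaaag

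Ifit3: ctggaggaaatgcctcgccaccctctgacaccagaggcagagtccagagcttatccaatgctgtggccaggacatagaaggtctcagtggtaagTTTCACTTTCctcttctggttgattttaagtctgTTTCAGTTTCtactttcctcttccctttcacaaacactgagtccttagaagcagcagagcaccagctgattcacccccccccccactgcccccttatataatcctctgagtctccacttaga

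Bst2: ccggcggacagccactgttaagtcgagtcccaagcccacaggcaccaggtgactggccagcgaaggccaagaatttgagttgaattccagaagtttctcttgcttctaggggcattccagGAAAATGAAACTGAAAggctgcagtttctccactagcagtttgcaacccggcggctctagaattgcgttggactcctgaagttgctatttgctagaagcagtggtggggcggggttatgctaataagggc

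Gbp3: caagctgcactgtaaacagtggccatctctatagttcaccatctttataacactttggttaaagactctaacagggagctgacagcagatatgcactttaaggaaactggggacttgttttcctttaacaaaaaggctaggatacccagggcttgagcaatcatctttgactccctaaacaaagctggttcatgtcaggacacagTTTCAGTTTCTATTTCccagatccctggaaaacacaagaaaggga

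Igtp: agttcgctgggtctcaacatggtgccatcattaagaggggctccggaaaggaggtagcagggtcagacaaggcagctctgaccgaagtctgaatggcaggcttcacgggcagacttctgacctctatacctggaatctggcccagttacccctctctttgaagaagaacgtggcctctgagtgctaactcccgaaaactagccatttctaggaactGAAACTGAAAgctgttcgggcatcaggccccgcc

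These windows lie at chr4:156200819-156201068 (minus strand) for Isg15, chr19:34583279-34583528 (plus strand) for Ifit3, chr8:71537473-71537722 (minus strand) for Bst2, chr3:142559794-142560043 (plus strand) for Gbp3 and chr11:58199306-58199555 (plus strand) for Igtp. The read counts were made on mm9, and these coordinates are not on that build. The ISRE was searched as 2 copies of GAAA separated by any 2 bases, on both strands, and overlapping matches were kept. Isg15 has 3 overlapping matches, Ifit3 has 2 separate ones, Bst2 and Gbp3 have 2 overlapping ones each, and Igtp has 1. RefSeq windows were matched for 31 of the 41 members, of which 13 (41.9%) held an ISRE match, against 936 of 27025 gene symbols (3.46%) with such windows. The GAS, searched as TTC and GAA separated by any 3 bases, which reads the same on both strands, was found for 7 of the 31 members (22.6%) and 2197 of all symbols (8.13%). A match describes letters only and is no evidence of binding.

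Trim21 counts set the genotypes apart. Wild-type libraries had 104, 127 and 93 Trim21 counts under PBS and 166, 113 and 225 under DEN. Knockout libraries had 3, 5 and 5 with PBS and 3 and 3 with DEN. A count of 7 in the library labelled heterozygote was well under every wild-type library, and its values are given separately and entered no test. Gene counts totalled 17303124 to 23059252 per library, and the lowest count of any member in any library was 8, for Ifi44 in DENWT_996. Hepatocyte markers summed to 90716 to 140235 CPM (counts per 1000000, on TMM-scaled library sizes) over the 12 libraries, and all 8 of them were detected in each group. Values of single libraries are given in the order PBSWT_541, PBSWT_542 and PBSWT_545 for PBS wild type, PBSKO_154, PBSKO_544 and PBSKO_549 for PBS knockout, DENWT_307, DENWT_995 and DENWT_996 for DEN wild type, and DENKO_141 and DENKO_309 for DEN knockout. Where libraries are said to be the lowest, the highest or separate from others, the comparison is among these 11 libraries and leaves out the one labelled heterozygote.

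Within groups, single libraries stood apart in the set as a whole. The median member, as log2 of its CPM over the PBS wild-type mean, was at -0.25, -0.06 and 0.42 in the PBS knockout libraries, where PBSKO_549 was the highest of its group for 33 of 41 members. Medians of the DEN wild-type libraries were -0.52, -0.90 and -1.14, with DENWT_307 the highest for 32 members. Of the DEN knockout pair, with medians of 0.26 and -0.08, DENKO_141 was the higher for 37 members.

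**Figure D1:**
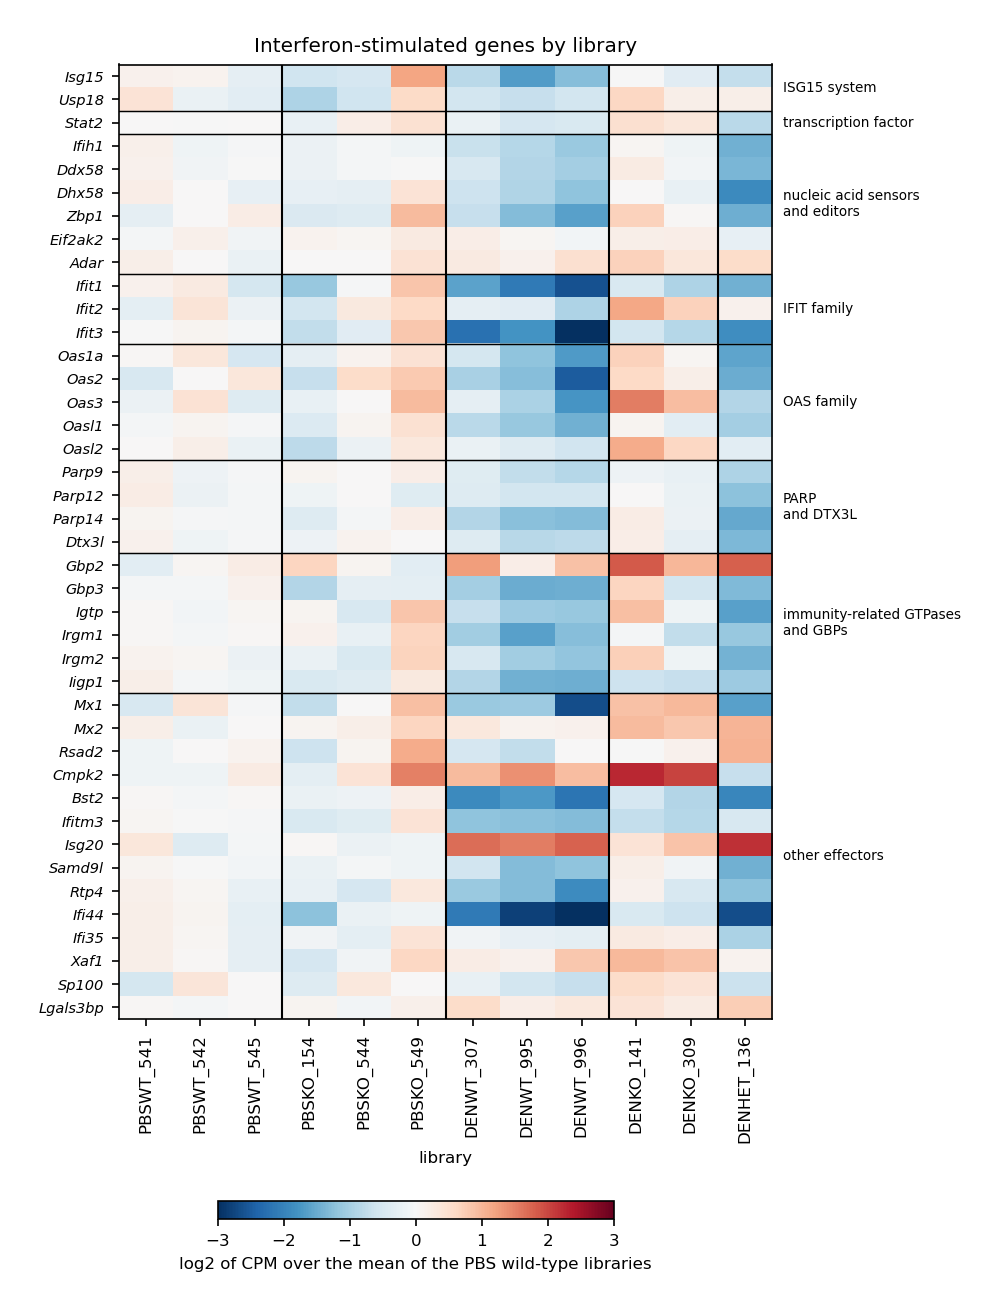
Heat map of the 41 members (y axis, by role) in all 12 libraries (x axis), coloured by log2 of CPM over the mean of the 3 PBS wild-type libraries, with the colour scale ending at -3 and 3. The DEN wild-type columns and the column labelled heterozygote (DENHET) are mostly blue, down to -3.93 for Ifi44 in DENWT_996, which is beyond the scale, while the DEN knockout columns have medians of 0.26 and -0.08.

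In wild-type liver most of the set was lower after DEN. Antiviral effectors with low levels under DEN included Ifi44, Ifit3, Ifit1 and Bst2, down 3.8-fold to 6.91-fold, and the RNA sensors Ifih1 and Ddx58 were down 1.82-fold and 1.71-fold. Isg20, Cmpk2, Gbp2 and Lgals3bp were higher. By edgeR's quasi-likelihood test, at an adjusted p under 0.05, 25 of 41 members (61%) fell and 4 (9.76%) rose, while over all genes tested 26.7% fell and 29.2% rose. The members' median log2 fold change was -0.87 and that of all genes was 0.04. For 27 members every DEN library was below every PBS library, against 30.7% of all genes, and for 3 every DEN library was above, against 34%. Log2 fold changes above 0 were found for 8 of 41 members and 52.1% of genes. With 1 of the 11 libraries left out in turn, 19 (without DENWT_996 or PBSWT_542) to 27 members fell and 1 (without PBSWT_542) to 4 rose, with 2 rising without DENWT_307, PBSWT_541 or PBSWT_545, and 20 of the 29 calls held in each of the 11 fits. Without scaling of library sizes, which moved the median of all genes to 0.53, 14 members fell and 8 rose, and the members' median was -0.40; in both fits 33 of 41 members lay below the median of all genes.

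In knockout liver few members passed with DEN, at shares no higher than those of all genes. Bst2, which tethers budding virions, fell 1.57-fold and Ifitm3, which blocks viral fusion, fell 1.63-fold. Cmpk2, a mitochondrial nucleotide kinase, rose 2.66-fold, Gbp2, a guanylate-binding GTPase, 2.45-fold, Oasl2, of the oligoadenylate synthetase family, 2.03-fold and Isg20, an exonuclease, 1.66-fold. These 4 higher (9.76%) and 2 lower members (4.88%) stand beside 12% and 10.7% of all genes in edgeR, and the median log2 fold change was 0.18 for members and 0.01 for all genes. The libraries did not overlap for 9 members higher under DEN (27.7% of all genes) and 4 lower (23.7%), and 27 of 41 members were above 0, against 51.2% of genes. These counts rested on few libraries: without DENKO_141 no member rose and 1 fell, without DENKO_309 none fell, without PBSKO_549, PBSKO_154 or PBSKO_544 there were 8, 2 or 1 higher members, and without PBSKO_549, PBSWT_542 or PBSWT_545 there was 1 lower member. Without scaling 20 members rose and none fell, with the median of all genes at 0.41.

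Under PBS no member passed the test between genotypes, and the size of difference that could be missed there was not measured. The edgeR test called 0 of 41 in either direction, and 0 had an unadjusted p under 0.05, against 508 of 13255 genes (3.83%). DESeq2 also called 0 members. Over all genes edgeR called 0 higher in knockout and 1 lower (0.00754%), which was Trim21. Log2 differences ran from -0.46 for Gbp3 to 0.73 for Cmpk2, with a median of 0.08 (0.01 for all genes). Gbp3 was the single member whose knockout libraries were all lower, against 4.22% of genes, and no member had all knockout libraries higher, against 3.98%; 25 members were above 0, against 52.1% of genes. Leaving out PBSKO_549 turned the median to -0.16, with 34 of 41 members then below 0, where 16 had been.

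Under DEN most of the set was higher in knockout than in wild-type liver. Mx1, a gene of the dynamin-like GTPase family, was 5.32-fold higher, Ifi44 4.78-fold, Oas3 4.41-fold, Oas2 3.63-fold and Ifit3 3.07-fold. Isg20 was 2.04-fold lower. In edgeR, 25 of 41 members (61%) were higher and 1 (2.44%) lower, against 12.2% and 9.85% of all genes, and 17 of the 25 were at least 2-fold higher. The members' median log2 fold change was 0.99 and that of all genes 0.01, and 39 of 41 members were above 0, as were 50.8% of genes. In 35 members both knockout libraries exceeded all 3 wild-type libraries, a pattern found in 29% of genes, and Isg20 alone showed the reverse (27.5%).

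The number of calls depended on single libraries far more than the direction did. Without DENKO_141 there were 2 higher members, Bst2 and Parp14, at log2 fold changes of 1.04 and 0.96, and no lower one; the other 24 calls did not pass. Calls over all genes also became far fewer in that fit, so the loss of calls was not particular to the members. Even so 39 of 41 members stayed above 0 there, with a median of 0.76. Without DENWT_996 there were 15 higher members. The comparison uses the same DEN wild-type libraries as the comparison of DEN with PBS in wild type, so the lower values in one and the higher values in the other are not separate observations.

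**Figure D2:**
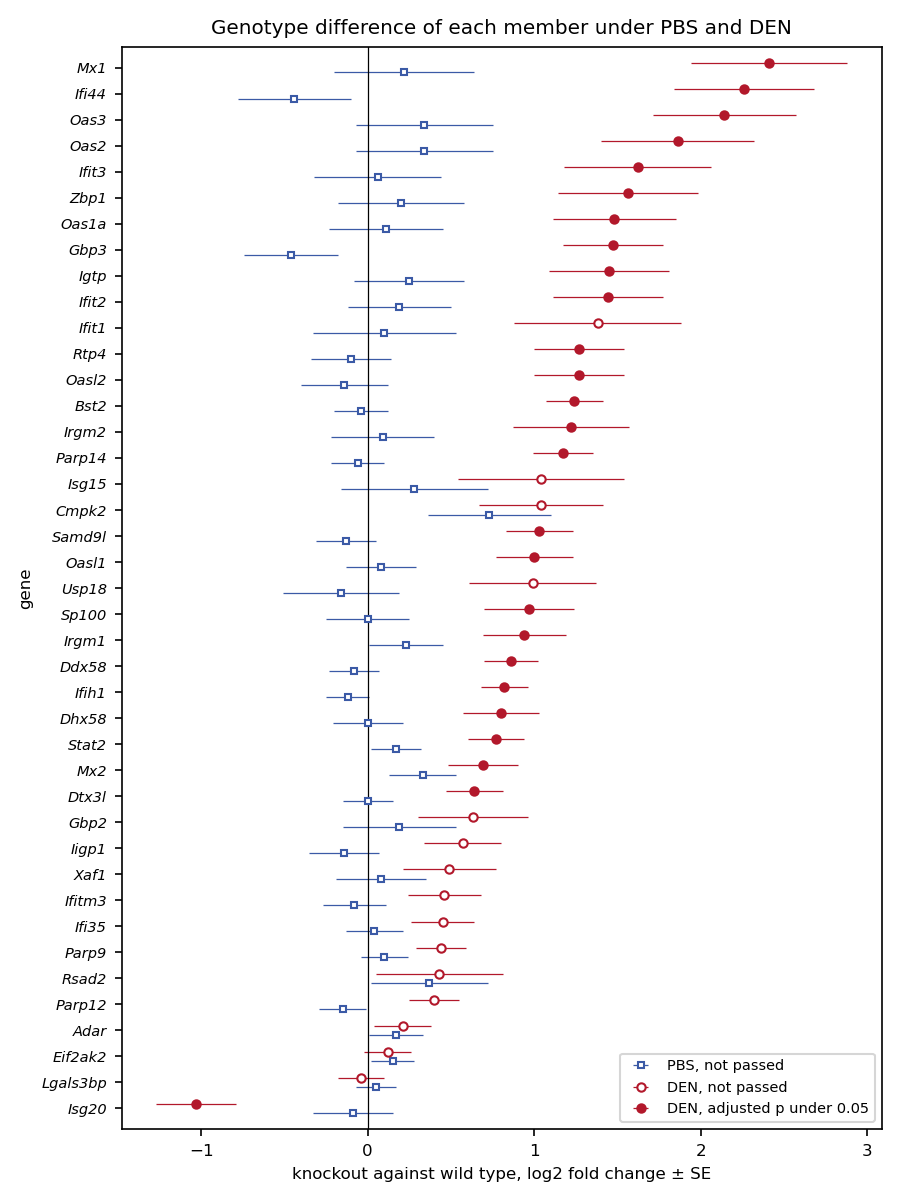
Log2 fold change of knockout against wild type (x axis) for each of the 41 members (y axis, ordered by the difference under DEN), under PBS (blue squares) and DEN (red circles), with bars of 1 standard error. Filled circles passed an adjusted p under 0.05. Differences under PBS lie between -0.46 and 0.73, none filled, and under DEN 39 of 41 lie above 0, from Isg20 at -1.03 to Mx1 at 2.41.

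Whether the response to DEN itself differed by genotype was tested by the interaction, which is the response in knockout minus that in wild type. It passed for 9 members (22%), all with a higher value in knockout, against 4.07% of genes in that direction, and for none in the other (2.5% of genes) by edgeR or DESeq2, Isg20 having an unadjusted p of 0.014 there in edgeR. The 9 were Bst2, Parp14, Ifi44, Ifih1, Gbp3, Samd9l, Ddx58, Oasl2 and Rtp4. The members' median was 0.94 on the log2 scale (0.00 over all genes) and 38 of 41 were above 0, against 50.2% of genes. Leaving out DENKO_141 made interaction calls far fewer over all genes as well as among members. Without DENKO_141 no interaction passed, without DENWT_996, PBSWT_542 or PBSWT_545 there were 4, without PBSWT_541 or PBSKO_154 there were 5, and without PBSKO_549 there were 22.

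**Figure D3:**
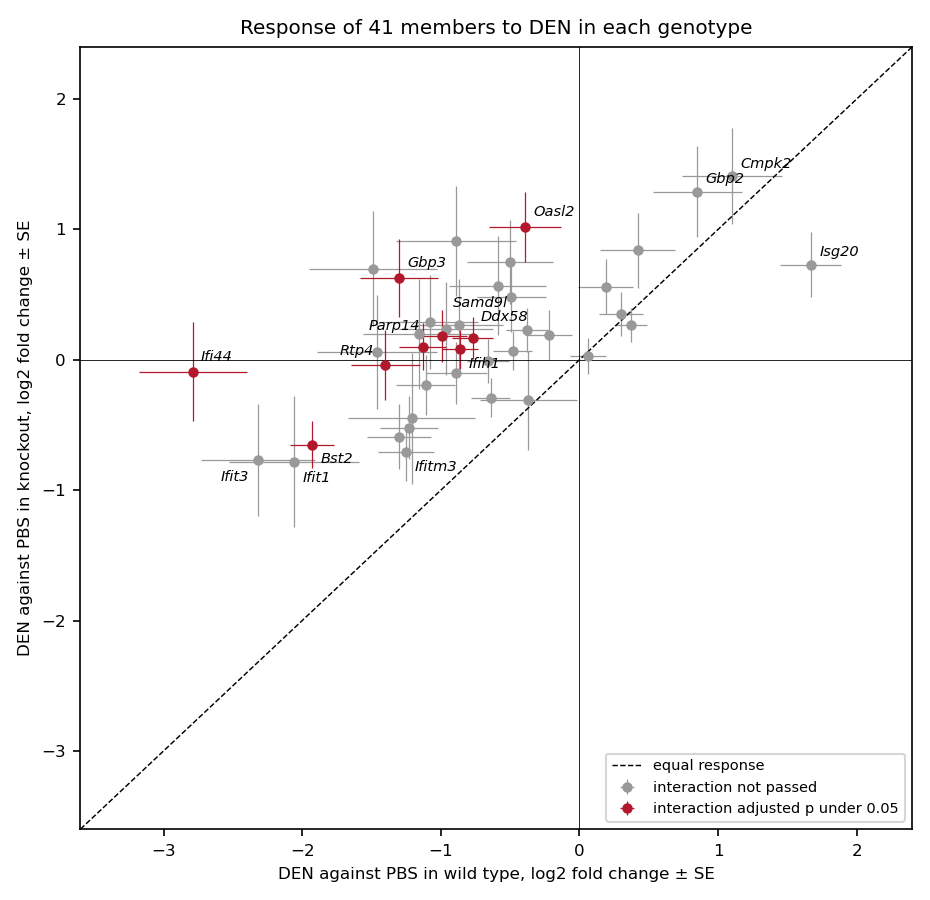
Log2 fold change of DEN against PBS in knockout (y axis) against that in wild type (x axis) for the 41 members, with bars of 1 standard error and a dashed line of equal response. Red points passed the interaction test in edgeR at an adjusted p under 0.05. The 9 red points lie above the line, with Ifi44 farthest to the left at -2.79, and Isg20 lies below the line at 1.67 and 0.73.

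Stat2, the subunit that brings the activation domain to the interferon-induced complex, had 71.5, 70.7 and 72.7 CPM under PBS and 62.6, 50.7 and 52.4 under DEN in wild type. In knockout it had 61.3, 82.6 and 97.7 CPM under PBS and 99.2 and 89.8 under DEN. All DEN wild-type libraries were below all PBS wild-type libraries, and both DEN knockout libraries were above all DEN wild-type libraries. The fall in wild type missed the threshold (log2 -0.38 ± 0.15 SE, adjusted p = 0.051), and the genotype difference under DEN passed (0.77 ± 0.17, adjusted p = 0.0079). The Stat2 gene overlaps Apof, an apolipoprotein gene, in the annotation, and the strand setting of the counting is not given in the sources used here, so its reads may be shared.

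Of the ISG15 system, Isg15 encodes a ubiquitin-like modifier and Usp18 the protease that removes it and restrains the receptor. Isg15 had 17.7, 17.2 and 13.3 CPM under PBS and 9.1, 5.04 and 6.63 under DEN in wild type, and 10.6, 11.3 and 36.7 under PBS and 15.8 and 12.8 under DEN in knockout. It fell 2.31-fold in wild type (log2 -1.21 ± 0.46, adjusted p = 0.047), a call that did not hold when any of 7 single libraries was left out (highest adjusted p = 0.14). PBSKO_549 stood well above the other 2 of its group. Both DEN knockout libraries exceeded the DEN wild-type ones for Isg15 and Usp18, but the differences of 1.04 ± 0.50 and 0.99 ± 0.38 did not pass (adjusted p = 0.16 and 0.083).

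Among the 6 sensors and editors, the 3 RIG-I-like receptors fell with DEN in wild type and were higher in knockout under DEN, and the interaction passed for 2 of them. Ifih1, which encodes the long double-stranded RNA sensor MDA5, had 44.1, 36.6 and 38.7 CPM under PBS and 25.2, 22.1 and 18.4 under DEN in wild type, and 35.1, 38.5 and 36.1 under PBS and 41.1 and 36.3 under DEN in knockout. Wild-type DEN libraries were below all PBS and DEN knockout libraries, and the knockout libraries overlapped between treatments. Its log2 fold change with DEN was -0.86 ± 0.13 in wild type (adjusted p = 0.00012) and 0.08 ± 0.15 in knockout (adjusted p = 0.73), and the interaction was 0.94 ± 0.20 (adjusted p = 0.022). Ddx58, which encodes RIG-I, the sensor of 5′-triphosphate RNA, had 30.6, 26.1 and 27.7 CPM under PBS and 20.2, 15.3 and 13.9 under DEN in wild type, and 25, 27.3 and 27.7 under PBS and 33.1 and 26.7 under DEN in knockout. The groups were ordered as for Ifih1, with an interaction of 0.94 ± 0.22 (adjusted p = 0.03). Dhx58, which encodes LGP2, the regulator of the other two, fell 1.86-fold in wild type (adjusted p = 0.0033) and was 1.74-fold higher in knockout under DEN (adjusted p = 0.029), and its interaction of 0.80 ± 0.32 did not pass (adjusted p = 0.14).

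Zbp1, a sensor of Z-form nucleic acid that can start necroptosis, had 7.97, 9.73 and 11.3 CPM under PBS and 5.98, 3.91 and 3.11 under DEN in wild type, and 7.13, 7.45 and 18.8 under PBS and 15.6 and 9.87 under DEN in knockout. Again the DEN wild-type libraries were the lowest, and the fold was 2.95 for knockout over wild type under DEN (log2 1.56 ± 0.42, adjusted p = 0.026). Eif2ak2, encoding the translation-blocking kinase PKR, and Adar, the adenosine deaminase that edits double-stranded RNA, went against their role group and passed in no comparison. Eif2ak2 had 14.6, 16.9 and 14.2 CPM under PBS and 17.5, 16 and 14.4 under DEN in wild type, and 17.2 and 17.4 in DEN knockout. Adar had 29.5, 26.3 and 22.8 CPM under PBS and 31.4, 28.8 and 36.8 under DEN in wild type, and 42 and 33.2 in DEN knockout. Their log2 differences between genotypes under DEN were 0.12 ± 0.14 and 0.21 ± 0.17. Adar overlaps Chrnb2 in the annotation.

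The IFIT proteins bind viral RNA and block its translation. Ifit3 had 12.2, 13.2 and 11.8 CPM under PBS and 2.62, 3.55 and 1.37 under DEN in wild type, and 7.49, 9.84 and 21.6 under PBS and 8.4 and 6.87 under DEN in knockout. Every DEN wild-type library was below every other library of the 4 groups. The fall was 5-fold in wild type (log2 -2.32 ± 0.41, adjusted p = 0.00071), and in knockout the change of -0.77 ± 0.43 did not pass (adjusted p = 0.23). Ifit1 had 15, 16.4 and 9.49 CPM under PBS and 4.51, 3.15 and 2.21 under DEN in wild type, and 6.22, 13.2 and 24.4 under PBS and 9.89 and 7.13 under DEN in knockout. It fell 4.17-fold in wild type (adjusted p = 0.0039), and its 2.6-fold higher value in knockout under DEN missed the threshold (adjusted p = 0.076). Ifit1 overlaps the related Ifit1bl1, with which reads may be shared. Ifit2 behaved otherwise: at 2.42, 3.89 and 2.65 CPM under PBS and 2.46, 2.38 and 1.57 under DEN its wild-type groups overlapped, and its knockout DEN libraries, at 6.75 and 4.81, were above all others. It was 2.72-fold higher in knockout under DEN (log2 1.44 ± 0.33, adjusted p = 0.0095).

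All 5 members of the OAS family were higher in knockout than in wild type under DEN, by 2-fold to 4.41-fold with a median log2 fold change of 1.48. OAS enzymes make the oligoadenylates that activate RNase L, and the OASL proteins are their relatives. Oas2 had 4.07, 5.74 and 7.23 CPM under PBS and 2.91, 2.34 and 1 under DEN in wild type, and 3.5, 8.25 and 9.74 under PBS and 8.55 and 6.41 under DEN in knockout. DEN wild-type libraries were again below all PBS and DEN knockout libraries, the fall being 2.75-fold (adjusted p = 0.014). Oas3 had 1.3, 2 and 1.13 CPM under PBS and 1.23, 0.765 and 0.435 under DEN in wild type, which overlapped, and 4.3 and 2.78 in DEN knockout. Its genotype difference under DEN was 2.14 ± 0.43 (adjusted p = 0.006).

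The interaction was above 0 for all 5 OAS family members and passed for Oasl2. It was 1.80 ± 0.60 for Oas3 (adjusted p = 0.086), 1.52 ± 0.61 for Oas2 (adjusted p = 0.15), 1.37 ± 0.50 for Oas1a (adjusted p = 0.11) and 0.92 ± 0.31 for Oasl1 (adjusted p = 0.091), and no test set Oasl2 apart from these. Oasl2 had 5.55, 6.25 and 4.78 CPM under PBS and 4.79, 4.23 and 3.68 under DEN in wild type, and 3.2, 4.92 and 6.92 under PBS and 12 and 8.44 under DEN in knockout. The treatment groups overlapped in wild type, and in knockout both DEN libraries were above all PBS libraries. It rose with DEN in knockout (log2 1.02 ± 0.27, adjusted p = 0.017), the wild-type change being -0.39 ± 0.26 (adjusted p = 0.21). Its interaction was 1.41 ± 0.38 (adjusted p = 0.042). Oas1a and Oasl1 fell 2.12-fold and 2.15-fold with DEN in wild type (adjusted p = 0.019 and 0.00074).

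The 4 genes of the PARP and DTX3L group, mono-ADP-ribosyltransferases and the ubiquitin ligase that pairs with PARP9, all fell with DEN in wild type, by log2 values of -1.13 to -0.48. Parp14 moved most. It had 41.2, 38 and 37.6 CPM under PBS and 21.2, 16.2 and 15.9 under DEN in wild type, and 29.8, 37.4 and 44.8 under PBS and 45.2 and 34.6 under DEN in knockout. There was no overlap of the DEN wild-type libraries with any other group. It fell 2.19-fold in wild type (log2 -1.13 ± 0.17, adjusted p = 9.3e-05), was 2.24-fold higher in knockout under DEN (1.17 ± 0.18, adjusted p = 0.002) and had an interaction of 1.23 ± 0.25 (adjusted p = 0.019). Dtx3l had 53.7, 44.9 and 47.4 CPM under PBS and 37.1, 27.4 and 28.2 under DEN in wild type, against 55.9 and 40.5 in DEN knockout, a genotype difference of 0.64 ± 0.17 (adjusted p = 0.018). Parp9 and Parp12 were lower in every DEN wild-type library than in both DEN knockout libraries without passing (adjusted p = 0.051 and 0.072). Parp9 and Dtx3l overlap in the annotation, so their counts may not be separate.

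Of the 6 interferon-inducible GTPases, which act on the membranes around intracellular pathogens, 5 fell with DEN in wild type and Gbp2 rose. Gbp3 had 8.56, 8.6 and 9.76 CPM under PBS and 4.47, 3.19 and 3.25 under DEN in wild type, and 4.83, 7.4 and 7.29 under PBS and 14 and 6.16 under DEN in knockout. DEN wild-type libraries were below all PBS and DEN knockout libraries, and the 2 DEN knockout libraries differed widely from each other. It fell 2.47-fold in wild type (log2 -1.30 ± 0.28, adjusted p = 0.0017), and the interaction was 1.93 ± 0.41 (adjusted p = 0.023), or 1.22 with an adjusted p of 0.16 without DENKO_141. Igtp had 34.7, 31.8 and 35.4 CPM under PBS and 20.9, 16 and 15.4 under DEN in wild type, and 36.2, 24.4 and 60.4 under PBS and 64 and 31.1 under DEN in knockout. Its knockout libraries spread widely in both treatments, and the genotype difference under DEN was 1.45 ± 0.36 (adjusted p = 0.02). Irgm1, with 72.4, 67.9 and 72.2 CPM under PBS and 34.1, 22.9 and 29.1 under DEN in wild type, fell 2.46-fold (adjusted p = 0.00046) and was 1.92-fold higher in DEN knockout, at 67.5 and 42.9 CPM.

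Gbp2 went the other way from its role group. It had 2.66, 3.43 and 3.85 CPM under PBS and 7.95, 3.82 and 6.13 under DEN in wild type, and 5.19, 3.53 and 2.66 under PBS and 11.9 and 6.58 under DEN in knockout. Values rose with DEN in both genotypes, by log2 0.85 ± 0.32 in wild type (adjusted p = 0.039) and 1.29 ± 0.35 in knockout (adjusted p = 0.017). Iigp1 fell 2.35-fold with DEN in wild type (adjusted p = 0.00031) and its genotype difference under DEN, 0.57 ± 0.23, did not pass (adjusted p = 0.094).

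Among the 14 other effectors, Bst2, which encodes tetherin, had the lowest adjusted p for DEN in wild type. It had 238, 225 and 239 CPM under PBS and 62.9, 70.5 and 51.3 under DEN in wild type, and 204, 211 and 269 under PBS and 164 and 127 under DEN in knockout. DEN libraries were below PBS libraries in both genotypes, and DEN knockout lay between DEN wild type and PBS. The fall was 3.8-fold in wild type (log2 -1.93 ± 0.16, adjusted p = 9.4e-07) and 1.57-fold in knockout (-0.65 ± 0.18, adjusted p = 0.019). The interaction was 1.28 ± 0.23 (adjusted p = 0.015). Ifitm3 likewise fell in both, from a mean of 551 ± 16.2 (SD, n = 3) to 232 ± 8.19 CPM (SD, n = 3) in wild type and from 521 ± 182 (SD, n = 3) to 320 ± 20.3 CPM (SD, n = 2) in knockout.

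Ifi44, a cytoplasmic protein induced strongly by type I interferon, had 4.61, 4.3 and 3.32 CPM under PBS and 0.942, 0.585 and 0.268 under DEN in wild type, and 1.75, 3.53 and 3.73 under PBS and 2.99 and 2.66 under DEN in knockout. Only the DEN wild-type libraries, of these 4 groups, were below 1 CPM. It fell 6.91-fold in wild type (log2 -2.79 ± 0.39, adjusted p = 6.2e-05) and did not pass in knockout (-0.09 ± 0.38, adjusted p = 0.88), with an interaction of 2.69 ± 0.54 (adjusted p = 0.02). Mx1 had 1.54, 2.77 and 2.06 CPM under PBS and 0.983, 0.99 and 0.335 under DEN in wild type, and 1.27, 2.14 and 3.99 under PBS and 3.87 and 4.18 under DEN in knockout. The genotype difference under DEN was 2.41 ± 0.47 (adjusted p = 0.0052), and the interaction of 2.19 ± 0.63 missed the threshold (adjusted p = 0.056).

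Samd9l, a translation-inhibiting antiviral factor, and Rtp4, a receptor transporter protein with antiviral activity, repeated the order of the groups. Samd9l had 17, 16 and 15.3 CPM under PBS and 10.8, 6.52 and 7 under DEN in wild type, and 14, 15.3 and 14.7 under PBS and 18.1 and 15.1 under DEN in knockout. Rtp4 had 16.7, 15.6 and 12.8 CPM under PBS and 6.97, 6.07 and 4.09 under DEN in wild type, and 12.8, 10.6 and 18.7 under PBS and 16.5 and 10.9 under DEN in knockout. For both, the DEN wild-type libraries were below all PBS and DEN knockout libraries, and the interactions were 1.17 ± 0.26 (adjusted p = 0.027) and 1.37 ± 0.37 (adjusted p = 0.044). Rtp4 overlaps Masp1, a complement protease gene, in the annotation.

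Isg20 and Cmpk2 rose with DEN in both genotypes, with opposite genotype differences. Isg20 had 3.07, 1.84 and 2.32 CPM under PBS and 7.7, 7.02 and 8.31 under DEN in wild type, and 2.48, 2.14 and 2.18 under PBS and 3.18 and 4.34 under DEN in knockout. Among the 4 groups the DEN wild-type libraries were the highest and overlapped with no other. The rise was 3.19-fold in wild type (adjusted p = 3.7e-05) and 1.66-fold in knockout (adjusted p = 0.048), the latter call holding in 2 of the 11 fits with a library left out. Cmpk2 had 3.9, 3.89 and 5.11 CPM under PBS and 8.36, 11.1 and 8.17 under DEN in wild type, and 3.5, 5.66 and 12.1 under PBS and 20.4 and 17.5 under DEN in knockout. Here DEN knockout was the highest group, and its 2.06-fold difference from DEN wild type did not pass (adjusted p = 0.062). Of the others, Mx2, a relative of Mx1, and Sp100, a nuclear body protein, were 1.62-fold and 1.96-fold higher in knockout under DEN (adjusted p = 0.03 and 0.023). Lgals3bp, a secreted glycoprotein, rose 1.29-fold with DEN in wild type (adjusted p = 0.02). Rsad2, Ifi35 and Xaf1 passed in no comparison.

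**Figure D4:**
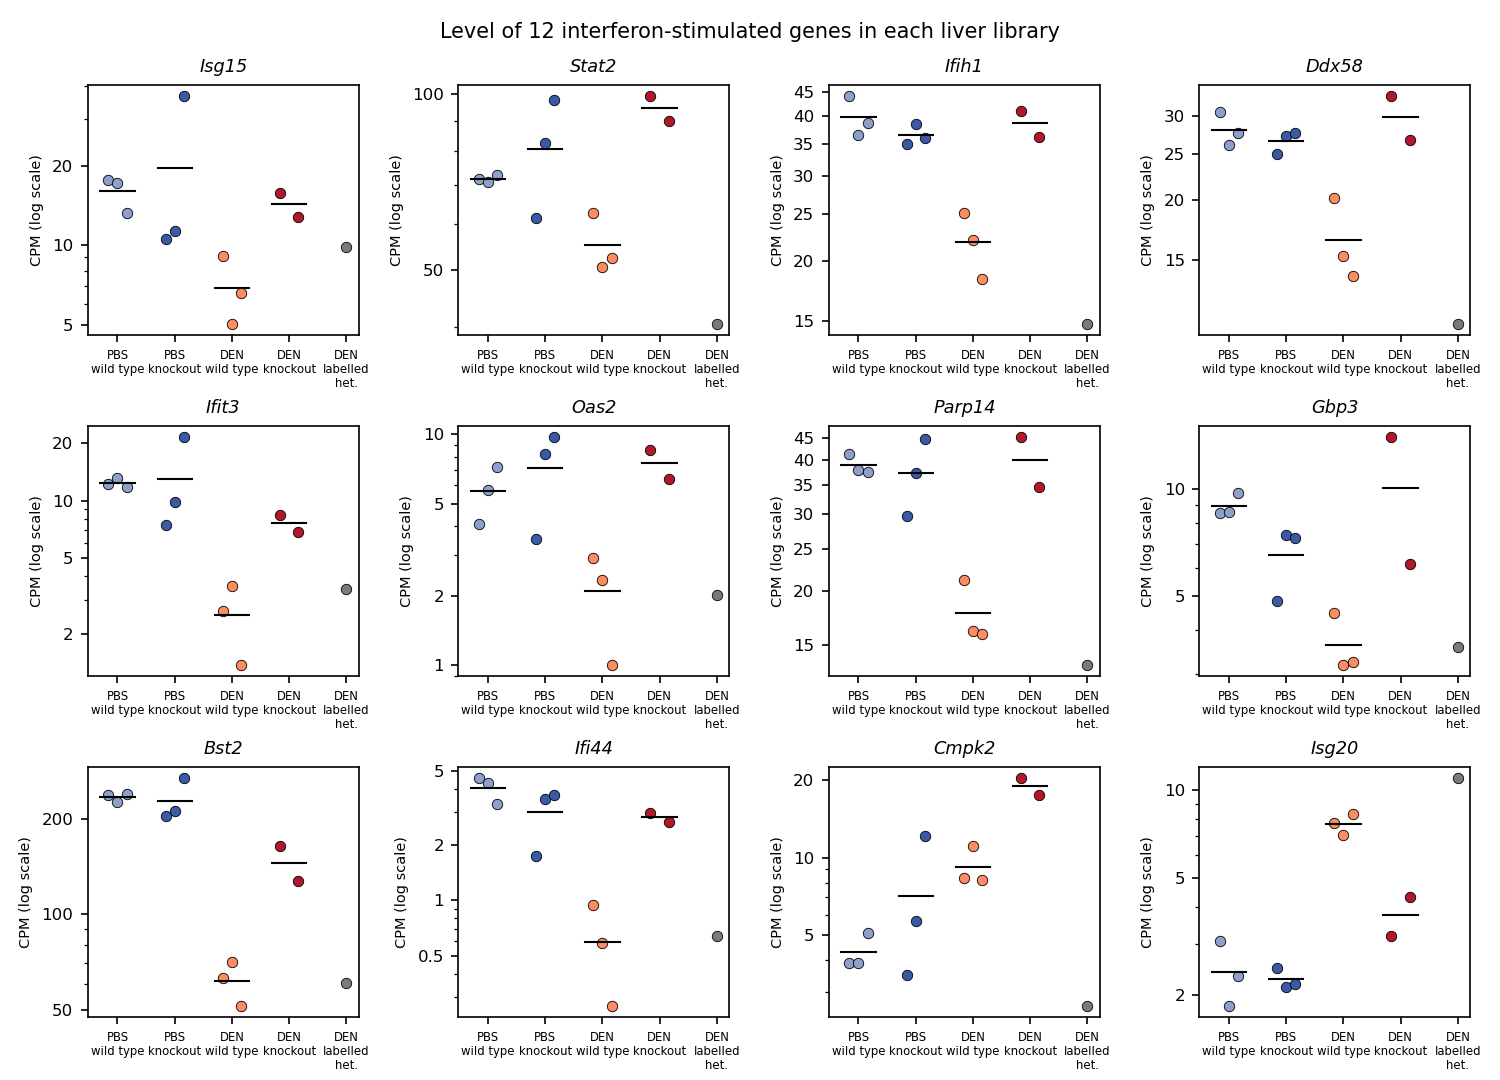
Level of 12 members in each library (points; y axis, CPM on a log scale) by group (x axis), with a line at each group's arithmetic mean. In 10 of the 12 panels the DEN wild-type points lie below the DEN knockout points and below PBS wild type; in the panel for Cmpk2 they lie above PBS wild type and below DEN knockout, and in that for Isg20 above both.

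The 13 members with an ISRE match and the 18 without in their windows are described by their counts. With a match, 9 of 13 fell with DEN in wild type and 9 of 13 were higher in knockout under DEN, with median log2 fold changes of -1.08 and 1.24. Without a match these were 8 and 9 of 18, with medians of -0.48 and 0.73. The 10 members with no window in the table had 8 and 7 such calls. Over all genes tested 26.7% fell with DEN in wild type and 12.2% were higher in knockout under DEN, and the difference between members with and without a match was not tested. The 5 promoters shown belong to genes that fell with DEN in wild type, and all of these but Isg15 were higher in knockout under DEN. Gbp2, whose window also held a match, rose with DEN in wild type and is not among them.

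The library labelled heterozygote was below both DEN knockout libraries for most of the set, and its share of members within the DEN wild-type range was near that of all genes. Its median member was at -1.08 on the log2 scale relative to PBS wild type. It was below both DEN knockout libraries for 33 of 41 members (80.5%), against 45.3% of genes, and above both for 5 (42.7% of genes), within the DEN wild-type range for 15 (36.6%, against 33.1% of genes), above it for 11 (32.1% of genes) and below it for 15 (34.8%). Of the 25 members higher in knockout under DEN, it was below both knockout libraries for 24 and above them for Mx2. Those 25 were picked by high values in the same knockout libraries, so this count is no separate support. Its Bst2 was at 60.5 CPM, its Ifih1 at 14.8 and its Isg20 at 11 CPM. Its Trim21 count is near those of knockout libraries, so these values are of a library whose genotype label and Trim21 count do not match.

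Beyond the 41 members, 43 other genes of interferon signalling were examined besides Trim21, of which 35 could be tested. Under DEN, 6 of the 35 were higher in knockout and 1 was lower in edgeR, against 12.2% and 9.85% of all genes. Under PBS none passed, against 0% higher and 0.00754% lower of all genes. With DEN, 8 of the 35 rose and 6 fell in wild type, against 29.2% and 26.7% of all genes. In knockout 11 rose and 3 fell, against 12% and 10.7%. Interferon genes themselves were near or at 0: 6 of 9 listed had no count in any library, and Ifng, which encodes interferon gamma, had 8 counts over all 12 libraries. Ifnk, encoding interferon kappa, had 0 counts in all 6 PBS libraries, 10, 52 and 19 in DEN wild type and 21 and 37 in DEN knockout, which was at least 18.2-fold and 21.5-fold higher against a floor of 3 counts over each PBS group. It lies within Mob3b in the annotation, so its counts may include reads of that gene.

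Of the transcription factors, Irf7 had its lowest values in DEN wild type. Irf7, the factor that amplifies type I interferon production, had 72.2, 68.7 and 67 CPM under PBS and 25, 20.7 and 15.5 under DEN in wild type, and 45.7, 66.7 and 68.1 under PBS and 67 and 48.6 under DEN in knockout. Its 3 DEN wild-type libraries lay below all PBS and DEN knockout libraries, and the interaction was 1.71 ± 0.28 (adjusted p = 0.01). Irf9, the DNA-binding subunit of the ISRE complex, had 43.2, 33 and 32.7 CPM under PBS and 37, 27.2 and 25.9 under DEN in wild type, which overlapped, and 33.9, 30.7 and 42.5 under PBS and 57.7 and 47.8 under DEN in knockout. It was 1.76-fold higher in knockout under DEN (adjusted p = 0.011), its fall of 0.27 on the log2 scale in wild type not passing (adjusted p = 0.2).

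Regulators upstream gave mixed directions. Ikbke, a kinase that activates IRF3 and IRF7, had 23.6, 29.8 and 27.9 CPM under PBS and 25.2, 26.9 and 21.3 under DEN in wild type, and 23.9, 31.5 and 42 under PBS and 57.3 and 60.6 under DEN in knockout. Its DEN knockout libraries were above those of the other 3 groups, and its interaction of 1.01 ± 0.26 passed (adjusted p = 0.04). Samhd1, a nucleotide triphosphatase that limits nucleic acid sensing, had 19.3, 23.4 and 25.2 CPM under PBS and 13, 10.2 and 9.91 under DEN in wild type, and 19.1, 20.1 and 23.6 under PBS and 28.5 and 18.2 under DEN in knockout. It fell 2.05-fold with DEN in wild type and was 2.12-fold higher in knockout under DEN, with an interaction of 1.19 ± 0.27 (adjusted p = 0.027). Irf1, a transcription factor, had 36.5, 48.6 and 27.9 CPM under PBS and 28, 26.7 and 26.9 under DEN in wild type, and 22.9, 26 and 36 under PBS and 52.2 and 36.4 under DEN in knockout. It was 1.63-fold higher in knockout under DEN (adjusted p = 0.046), its PBS wild-type libraries overlapping with the DEN knockout ones. The DNA sensor Tlr9 had few counts, with 3, 3 and 3 under PBS and 4, 6 and 4 under DEN in wild type. In knockout it had 5, 3 and 2 under PBS and 22 and 15 under DEN, a 3.91-fold genotype difference under DEN (adjusted p = 0.013). Tlr9 passed the filter on low counts only through its DEN knockout libraries. Neither this difference nor its place in the count of higher pathway genes is therefore separate support. Traf6, a signalling ubiquitin ligase, was lower in knockout under DEN, by 1.66-fold (adjusted p = 0.007). It had 22.6, 19.9 and 22 CPM under PBS and 26.7, 31.8 and 38.6 under DEN in wild type, and 21.1, 20.2 and 21.6 under PBS and 20.1 and 18.9 under DEN in knockout, so that the DEN wild-type libraries were the highest.

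**Figure D5:**
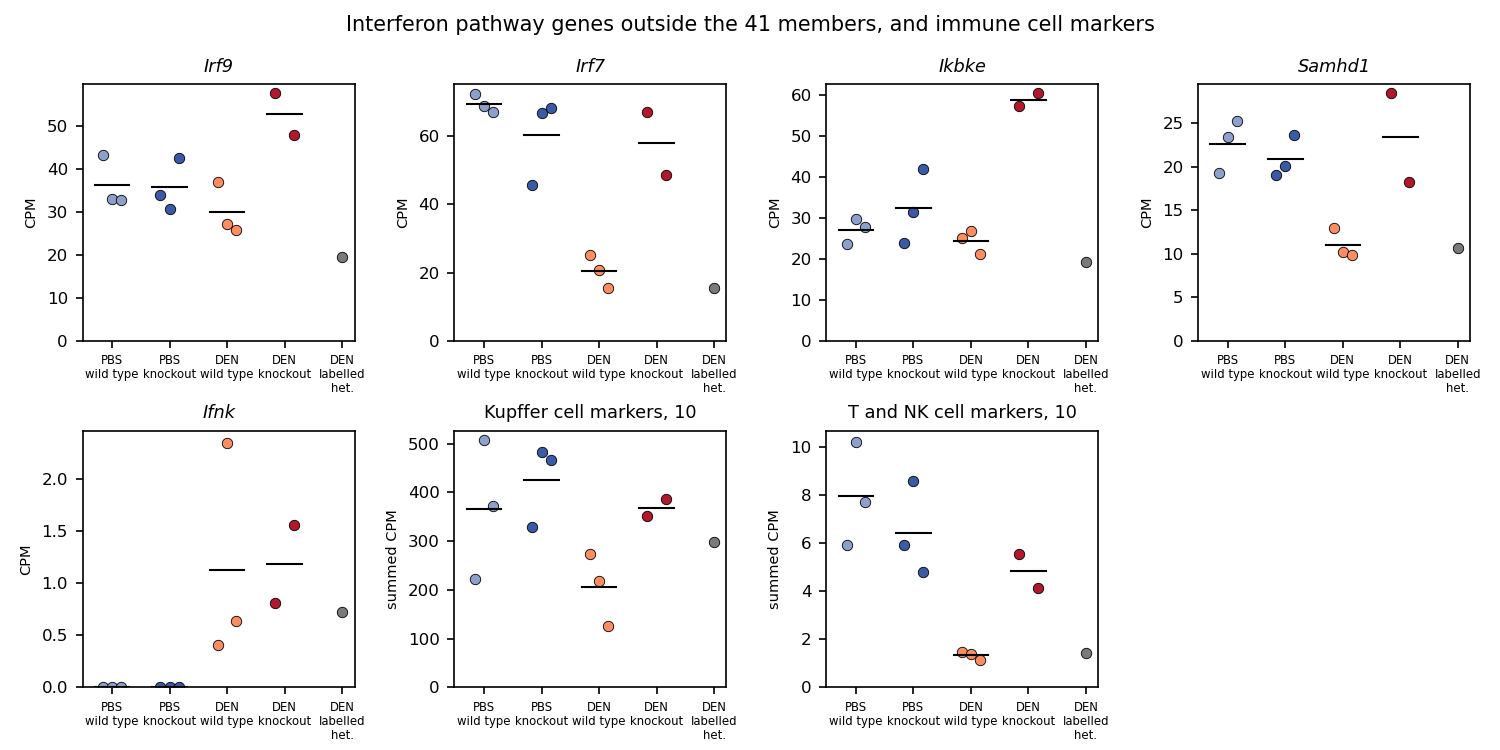
CPM in each library (points; y axis, linear) by group (x axis) for 5 interferon pathway genes outside the 41 members and the summed CPM of 10 Kupffer cell and 10 T and NK cell markers, with lines at group means. For Irf7, Samhd1 and the T and NK cell markers, the DEN wild-type points lie below all PBS and DEN knockout points; Ifnk is at 0 in the 6 PBS libraries.

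Markers of immune cells moved in the same libraries. The 10 T and NK cell markers, of which 7 could be tested, summed to 5.91 to 10.2 CPM in PBS wild type, 4.79 to 8.59 in PBS knockout, 1.14 to 1.48 in DEN wild type, 4.13 to 5.56 in DEN knockout and 1.41 in the library labelled heterozygote, with no marker at 0 in any group. Of the 7, 6 fell with DEN in wild type and 4 were higher in knockout under DEN. Over all genes tested these shares were 26.7% and 12.2%. A large part of the PBS sums was Cd4, at 2.72, 5.89 and 4.91 CPM in wild type and 2.29, 5.46 and 1.65 in knockout. Under DEN Cd4 had 0.41, 0.225 and 0.234 CPM in wild type, 0.805 and 0.506 in knockout and 0.402 in the library labelled heterozygote. The 10 Kupffer cell markers summed to 222 to 507, 329 to 482, 127 to 273, 352 to 386 and 299 CPM in the same order, with none at 0. Without Marco the sums were 219 to 502, 326 to 477, 107 to 224, 308 to 319 and 239 CPM. With DEN in wild type 6 fell and Marco rose, against 26.7% and 29.2% of all genes. Under DEN Cd5l alone was higher in knockout, against 12.2% of all genes. Plasmacytoid dendritic cell markers summed to 1.12 to 1.74, 1.45 to 3.62, 22.6 to 43.9, 11.7 to 17.8 and 43.4 CPM, nearly all of the DEN values being Ly6d, with Klk1 at 0 in DEN wild type and Siglech, Klk1 and Cox6a2 at 0 in the library labelled heterozygote; without Ly6d the DEN wild-type sums were 0.0335 to 0.41 and the DEN knockout sums 1.05 to 1.8 CPM. The 5 dendritic cell markers, none at 0 in any group, summed to 3.07 to 4.66, 3.46 to 3.97, 3.89 to 4.32, 8.17 to 8.69 and 3.58 CPM. Monocyte markers summed to 2.3 to 3.65, 2.9 to 3.73, 10 to 37.7, 27.4 to 35.7 and 29.2 CPM, and neutrophil markers to 2.19 to 3.02, 2.24 to 9.36, 31.6 to 89, 54.6 to 66.4 and 84 CPM, with 2 neutrophil markers at 0 in PBS wild type, 1 in PBS knockout and 2 in DEN knockout. Much of the neutrophil sums under DEN was Ltf, at 15.9, 76.8 and 24.2 CPM in wild type and 45.7 and 50.9 in knockout. In the library labelled heterozygote Ltf was at 12.4 CPM and S100a9 at 37. Under DEN, 2 of 5 monocyte markers were higher in knockout, Ly6c2 by 4.26-fold (adjusted p = 0.01) and Ccr2 by 2.12-fold (adjusted p = 0.018). So was Itgax of 2 dendritic cell markers tested, by 5.53-fold (adjusted p = 0.002). Siglech, of 3 plasmacytoid dendritic cell markers tested, was called 10.6-fold higher (adjusted p = 0.011). It had 0.164, 0.045 and 0 CPM in DEN wild type, at most 0.512 under PBS, and 1.04 and 0.464 in DEN knockout. Siglech passed the filter on low counts only through its DEN knockout libraries, so its call is no separate support. No neutrophil or B cell marker passed there, with 5 and 3 tested. The interaction passed for Itgax (log2 3.07 ± 0.57, adjusted p = 0.016) and for 2 T and NK cell markers, Cd8a and Nkg7 (adjusted p = 0.037 and 0.032). Cd8a had 0.123, 0.09 and 0.167 CPM in DEN wild type and 1.15 and 0.59 in DEN knockout. Without the DEN knockout libraries Cd8a would not have passed the filter on low counts. Its calls, here and among the 4 above, are therefore no separate support. Nkg7 was near the floor in DEN wild type, at 0.123, 0.09 and 0.067 CPM, against 0.844 and 0.59 in DEN knockout. Over all 12 libraries B cell markers summed to 1.07 to 4.05, sinusoidal endothelial markers to 93.3 to 206, stellate cell markers to 172 to 441 and cholangiocyte markers to 3.62 to 17.6 CPM. Of these, the stellate cell marker Reln was 1.80-fold higher in knockout under DEN (adjusted p = 0.0064) and passed in the interaction (adjusted p = 0.03). The part of these cells in the members' values was not tested, and in bulk tissue fewer cells of a type and less RNA per cell cannot be told apart.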

How the data were processed

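Total RNA of mouse liver was sequenced after ribosomal RNA depletion, per the labels' protocols. Raw counts of reads per gene, as the authors deposited them, came in 1 table per library. Per the submitters' processing notes, bcl2fastq, TopHat2 and HTSeq were used on build mm9; for versions, annotation and strand setting the sources used here give nothing. The 5 tally lines that name no gene held 71.6% to 78.7% of the listed counts in PBS libraries and 61.4% to 69.6% in DEN libraries, and were left out. Most of these were alignments that were not unique, which were counted for no gene. Replicates differed by more than sampling noise (chi-square per degree of freedom 23.3 to 78.6 over 10 pairs).

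Counts of 11 libraries were fitted together in R 4.3.3 with edgeR 4.0.16 (glmQLFit with robust spread, TMM scaling, filterByExpr), and DESeq2 1.42.0 was an alternative. The Benjamini-Hochberg adjustment ran over 13255 genes, and calls needed an adjusted p under 0.05. Fold changes are given with their standard error (SE), and CPM uses TMM-scaled library sizes. The procedure was tested on simulated data with genes changed in the DEN knockout libraries. For knockout against wild type under DEN it recovered 6% of 1.5-fold and 54% of 2-fold changes, so changes of that size can be missed. Alternatives were other scalings, filters, tests and sample sets, and each library left out. The members, the role groups and the pathway and marker lists were chosen with earlier results of these data known. Library values are given for called members with the largest changes in each role group, for those called in the interaction, for those against their group, and for pathway genes called between genotypes under DEN or in the interaction, with Irf9 and Irf7. Of the pathway list, 1 gene is not reported here.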

Additional observations from a re-analysis of the deposited data

Results flagged for a closer look

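For 9 members (22%) the response to DEN differed between knockout and wild type by the interaction test of edgeR, each with a higher value in knockout. Over all genes tested, 4.07% passed in that direction. The differences of the log2 responses were 2.69 for Ifi44, 1.93 for Gbp3, 1.41 for Oasl2, 1.37 for Rtp4, 1.28 for Bst2, 1.23 for Parp14, 1.17 for Samd9l, 0.94 for Ifih1 and 0.94 for Ddx58, with adjusted p-values of 0.015 to 0.044. Without DENKO_141, none of the 9 passed, their highest adjusted p then being 0.24 for Rtp4. Groups of 2 or 3 libraries were too small to test for single outlying values.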

How the results depend on the processing

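No paired analysis was possible because no number in the library titles occurs in more than 1 group. Without scaling of library sizes, the median of all genes moved from 0.04 to 0.53 with DEN in wild type and from 0.01 to 0.41 in knockout, and the share of calls that were higher from 52.3% to 78.8% and from 53.0% to 89.2%. Members called were then 8 higher and 14 lower in wild type and 20 higher and 0 lower in knockout, and genes called were 6893 and 1856, and 4724 and 573. With only the groups compared in the fit, 1 member was higher and 0 were lower with DEN in knockout. DESeq2 called 861 genes higher and 604 lower in the interaction, against 540 and 332. Leaving out 1 library at a time gave, for DEN in wild type, 1 to 4 members higher and 19 to 27 lower (3185 to 4004 and 3035 to 3683 genes). For DEN in knockout it gave 0 to 8 and 0 to 3 members (718 to 1634 and 443 to 1534 genes), for knockout under DEN 2 to 33 and 0 to 1 (206 to 1791 and 50 to 1565 genes), and for the interaction 0 to 22 and 0 (24 to 622 and 2 to 539 genes). Under PBS no member was called in any of these fits or settings. With 1 DEN knockout library left, that library is assumed to vary like the other groups. No called member changed sign in any setting. The cause of these shifts was not tested. Counts of 8 to 17 for Ifi44, Mx1 and Oas3 in DEN wild-type libraries limit their precision.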
